A study of Homo sapiens with 6 samples.

Results

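The MAF and CNC factors are basic leucine zipper proteins that bind DNA as pairs. The 9 members examined here, of 58870 genes in the count table, were taken by gene symbol: the small MAF genes MAFG, MAFF and MAFK, the large MAF gene MAF, and the CNC and BACH genes NFE2, NFE2L1, NFE2L3, BACH1 and BACH2. RNA sequencing was performed on WM164, an established human melanoma cell line, with 3 libraries from cells given a lentiviral GFP vector as the control and 3 from cells given T-MGM, in which MAFG and MITF are joined by a flexible linker and so form a fixed pair. Both vectors drive their insert from the EF1α promoter and carry blasticidin resistance, and all cells grew in RPMI with serum and antibiotics. MITF is the master regulator of the melanocyte lineage, and the comparison addresses what a dimer locked to that partner does to the transcriptome. The labels do not say whether the 3 libraries of a group came from separate cultures, so the p-values measure only the spread between these libraries. No age, passage or harvest time was given.

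Small MAF proteins have a DNA-binding region and a zipper but no activation domain. As pairs of their own they repress, and with a CNC partner they can activate genes that carry a MAF recognition element or a related antioxidant response element, whereas with BACH1 or BACH2 they repress them. The small MAF supply is therefore shared among many partners, and the amount of each partner sets which dimers can form.

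RefSeq promoter windows (GRCh38.p14, from 250 bases before to 50 bases after each start site) were found for 7 of the 9 members, 11 windows in all, and not for MAFK or NFE2. They were searched on both strands for the MITF-type E-box CACGTG, the melanocyte M-box TCATGTG, the AP-1-like core TGANTCA, the CNC and MAF pattern TGACNNNGC and the full MAF recognition element palindrome, which contains the AP-1-like core. Of the 11 windows, 4 held a match. The stretches below are shown because they hold every match found, with the matched bases in capitals, and each stretch is trimmed to leave out untranslated exon sequence beyond 30 bases.
MAFG, chr17:81927731-81927985, minus strand: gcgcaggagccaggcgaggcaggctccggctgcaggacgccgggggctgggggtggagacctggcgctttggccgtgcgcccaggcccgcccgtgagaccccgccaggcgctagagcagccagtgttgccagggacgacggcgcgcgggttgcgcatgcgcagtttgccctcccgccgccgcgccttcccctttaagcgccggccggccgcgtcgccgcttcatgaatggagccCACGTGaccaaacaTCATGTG
MAFF, first start site, chr22:38201744-38201931, plus strand: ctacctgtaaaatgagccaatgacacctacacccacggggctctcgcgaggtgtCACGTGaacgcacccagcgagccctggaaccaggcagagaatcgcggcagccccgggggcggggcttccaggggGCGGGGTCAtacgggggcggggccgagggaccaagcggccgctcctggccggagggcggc
MAFF, second start site, chr22:38202927-38202956, plus strand: cagggcctccgcCACGTGaccccagtgttt
BACH1, chr21:29298672-29298921, plus strand: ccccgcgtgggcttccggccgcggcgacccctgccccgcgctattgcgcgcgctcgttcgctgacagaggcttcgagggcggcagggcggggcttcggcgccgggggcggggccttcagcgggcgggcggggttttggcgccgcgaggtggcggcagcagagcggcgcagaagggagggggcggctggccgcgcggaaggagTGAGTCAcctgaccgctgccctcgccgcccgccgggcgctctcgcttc

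The MAFG stretch held a CACGTG that began 16 bases before the start site and a TCATGTG that began 2 bases before it. MAFF held CACGTG at both of its windows, 196 and 81 bases before the respective start site, and the first of these also held a TGACNNNGC match on the other strand, which reads GCGGGGTCA as printed. BACH1 held the AP-1-like TGAGTCA 48 bases before 1 of its 3 start sites. Among all 35116 promoter windows, CACGTG was present in 7.26%, TCATGTG in 2.92%, TGANTCA in 7.71% and TGACNNNGC in 13.3%, and the full palindrome in 0. The windows of MAF, BACH2, NFE2L1 and NFE2L3 held none of these letters. Such matches describe the sequence and do not show that a factor binds there.

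Total counts were 35057239 to 38738065 in the GFP libraries and 44577774 to 59250663 in the libraries labelled T-MGM. All 7 melanocyte markers examined were detected, with a summed level of 1144 to 1168 TPM (an abundance scaled for transcript length and library depth) in GFP and 972 to 1009 TPM in T-MGM. The median gene also lay lower in T-MGM on this scale, at -0.13 on log2(TPM + 1). DESeq2 called 3 of these markers higher and 4 lower in T-MGM, beside 19.2% of all tested genes in each direction. The 3 higher markers were SOX10, PMEL and MITF, and the construct carries MITF. DCT, a melanin synthesis enzyme and the 1 marker of this list called over 2-fold, fell by 2.49 on the log2 scale, from 11460 ± 126 to 2051 ± 88.8 normalized counts, which are counts divided by the DESeq2 size factor of each library (SD, n = 3 each). With the offset for GC content and length described below, 1 of the 7 markers was called higher and 4 lower, beside 36.3% of all genes in either direction. SOX10 (-0.03, DESeq2 adjusted p = 0.143) and PMEL (-0.02, 0.423) no longer passed in that fit. In the TPM values limma called 5 of them, all lower, beside 40.3% of all genes in either direction. The part of these markers in the results below was not tested. In bulk RNA, fewer cells of a type and less RNA per cell cannot be told apart. Of 10 erythroid and megakaryocyte markers, 9 stayed under 0.1 TPM in all 6 libraries, as did 6 of 8 immune, endothelial and epithelial markers.

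MAFG, the gene carried by the construct, was examined first. It lies at chr17:81918270-81927735 on the minus strand of GRCh38 (ENSG00000197063.11). Its normalized counts were 2535, 2397 and 2442 in GFP replicates 1 to 3 and 2396, 2351 and 2327 in T-MGM replicates 1 to 3. The T-MGM libraries lay below all GFP libraries, but the nearest pair differed by under 2 counts. The log2 fold change was -0.06 with an SE of 0.04, which did not pass the test (DESeq2 adjusted p = 0.236), so the counts assigned to MAFG did not rise in the libraries labelled T-MGM and did not check that label. The coding part makes up 486 of the 5061 bases of the canonical MAFG transcript, or 9.60%, and an inserted cDNA can add reads to that part only. How many of the MAFG reads came from the insert was not tested. MITF, the other gene of the construct, rose by 0.08 (DESeq2 adjusted p = 4.8e-07), and by 0.19 with the offset for GC content described below (1.24e-35), while its TPM was 137 to 139 in GFP and 130 to 135 in T-MGM. The median gene also lay lower on the TPM scale, at -0.13 on log2(TPM + 1). The TPM values of MITF were not set against that shift. As DESeq2 called 19.2% of all tested genes higher, the rise of MITF did not check the label either.

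Changes across the family were small. DESeq2 called 3 of the 9 members at an adjusted p at or under 0.05, beside 38.4% of all 19135 genes tested. Of these, 2 were higher and 1 was lower in T-MGM, where 19.2% of all tested genes were called in each direction. The share of members called was close to that of the genes at large. An over-2-fold change was called for 0 members by DESeq2 and by edgeR, beside 4.63% of tested genes in DESeq2. For 5 members the GFP and T-MGM ranges of normalized counts were separate, beside 46.8% of tested genes. T-MGM was the higher group for 2 of these and the lower group for 3, beside 23.4% of tested genes in each direction. The median log2 fold change of the 9 members was -0.06, and that of all tested genes was -0.0027.

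**Figure D1:**
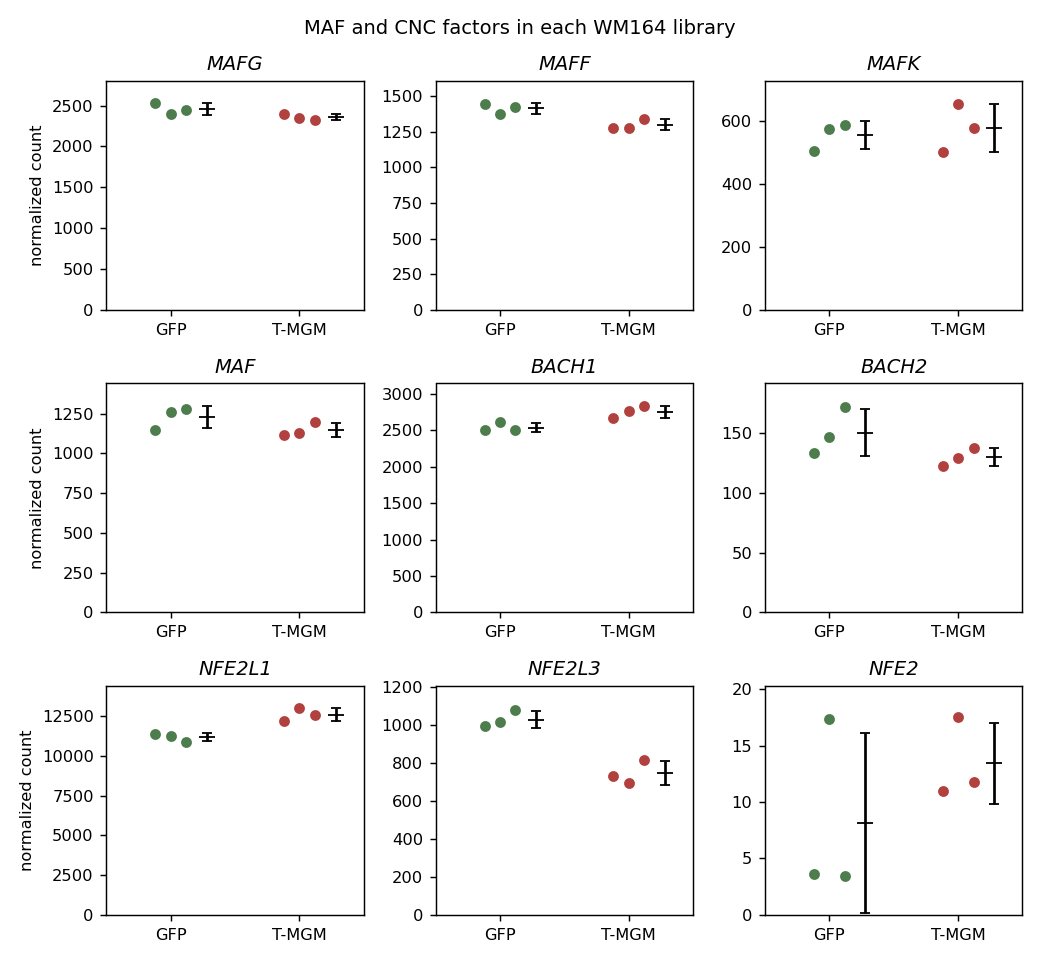
Normalized counts (vertical axes, from 0, one scale per gene) of the 9 members in each of the 3 GFP (green) and 3 T-MGM (red) libraries, replicates 1 to 3 from left to right, with the mean ± SD of each group in black. NFE2L3 sits at 993 to 1077 in GFP and at 695 to 817 in T-MGM, and the 2 ranges are far apart.

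None of the small MAF genes passed the test on normalized counts, although MAFG and MAFF were called lower under other treatments of the values given below. MAFF (chr22:38200767-38216507, plus strand), known as a stress-inducible small MAF, had normalized counts of 1443, 1373 and 1425 in the GFP libraries, and the T-MGM libraries had 1277, 1278 and 1342. All 3 T-MGM libraries lay below all GFP libraries, and the log2 fold change of -0.12 (SE 0.05) stood just outside the threshold (DESeq2 adjusted p = 0.0519). MAFK, the third small MAF, had 504, 574 and 587 in GFP libraries against 503, 654 and 578 in T-MGM libraries, so the groups overlapped. Its log2 fold change was 0.06 (SE 0.10, DESeq2 adjusted p = 0.71), with 95% limits from a 0.913-fold to a 1.19-fold level, and its sign changed under other treatments of the values given below. MAFG shares 105 exonic bases with SIRT7 on the same strand, and MAFF shares 326 with PLA2G6 on the opposite strand, and neither neighbour passed the test (DESeq2 adjusted p = 0.219 and 0.557). The divergent transcript beside MAFG, MAFG-DT, had a log2 fold change of 0.01 (DESeq2 adjusted p = 0.97) at 201 to 321 raw counts.

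MAF, a large MAF factor with its own activation domain, had normalized counts of 1149, 1261 and 1277 in the GFP libraries, against 1116, 1127 and 1198 in T-MGM. The groups overlapped through GFP replicate 1, and the log2 fold change was -0.10 (SE 0.06, DESeq2 adjusted p = 0.187). MAFA, an activator of the insulin gene, had a mean normalized count of 21.2 ± 2.31 in GFP and 23.1 ± 14.0 in T-MGM (SD, n = 3 each), and NRL, the rod photoreceptor factor, had 43.3 ± 10.3 and 41.0 ± 10.6. Both differences lay within the spread between replicates (DESeq2 adjusted p = 0.887 for MAFA and 0.872 for NRL).

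NFE2L1 (chr17:48048329-48061545, plus strand) was higher in T-MGM and was by far the most abundant member. Its protein sits in the membrane of the endoplasmic reticulum and, after release and cleavage, activates the proteasome genes. The GFP libraries had 11385, 11232 and 10896 normalized counts and the T-MGM libraries 12190, 12984 and 12579. Every T-MGM library exceeded every GFP library. NFE2L1 rose by 0.17 on the log2 scale, a 1.13-fold change with 95% limits of 1.09 and 1.16 (SE 0.02, DESeq2 adjusted p = 6.34e-13). The 117 expressed genes within 5 Mb of NFE2L1 had a median log2 fold change of 0.02.

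NFE2L3 showed the largest called change of the family. It encodes a less studied relative of NFE2L1 that is also tied to intracellular membranes. The GFP libraries had 993, 1015 and 1077 normalized counts and the T-MGM libraries 734, 695 and 817, with a clear gap between the groups. NFE2L3 fell by 0.45 on the log2 scale, to 0.73 of the GFP level with 95% limits of 0.663 and 0.803 (SE 0.07, DESeq2 adjusted p = 8.18e-10). The gene lies at chr7:26152198-26187137 on the plus strand, and the 50 expressed genes within 5 Mb of it had a median log2 fold change of -0.19. It shares 1207 of its 4303 annotated exonic bases with HNRNPA2B1, a highly expressed gene on the opposite strand with 50961 to 56258 raw counts in GFP and 52178 to 69607 in T-MGM. HNRNPA2B1 fell by 0.25 on the log2 scale (DESeq2 adjusted p = 1.93e-104). Because the sources name both a stranded and an unstranded library kit, reads of the shared bases cannot be told apart between these genes.

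BACH1 (chr21:29194071-29630751, plus strand), the heme-sensing repressor that competes for small MAF partners, rose slightly. It had 2498, 2614 and 2498 normalized counts in the GFP libraries, against 2665, 2762 and 2832 in T-MGM. The groups did not overlap, although GFP replicate 2 came close to T-MGM replicate 1. The change was 0.12 on the log2 scale, or 1.09-fold with 95% limits of 1.03 and 1.14 (SE 0.04, DESeq2 adjusted p = 0.00616), and it missed the threshold without T-MGM replicate 3 (0.0751). BACH2, a regulator of lymphocyte differentiation, was far less abundant, with 133, 146 and 171 normalized counts in the GFP libraries against 122, 129 and 137 in T-MGM. These ranges overlapped, and the log2 fold change of -0.21 did not pass (SE 0.17, DESeq2 adjusted p = 0.357), with 95% limits from a 0.686-fold to a 1.09-fold level. Without GFP replicate 3 it was -0.11.

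NFE2, the erythroid and megakaryocyte member, was close to the limit of detection. It had 3, 16 and 3 raw counts in the GFP libraries against 12, 18 and 16 in T-MGM, and 2 GFP libraries were at 3 counts, the floor at or under which a count was not read as a level. GFP replicate 2 lay within the T-MGM range. The log2 fold change of 0.71 had an SE as large as itself (0.71, DESeq2 adjusted p = 0.488), so a difference in NFE2 was not detectable at this depth. Without GFP replicate 2 the value was 1.93 (adjusted p = 0.0889), and without GFP replicate 1 or 3 it was 0.36 or 0.34.

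The members also differed in base composition, and fold changes across the transcriptome rose with the GC content of the transcript. Among genes averaging 50 or more normalized counts, the median log2 fold change was -0.17 in the tenth of genes with the lowest GC content and 0.15 in the tenth with the highest. The 4 MAF genes had GC-rich canonical transcripts, at 57.3% for MAFG, 59.3% for MAFF, 63.4% for MAFK and 61.2% for MAF, and BACH1 had 38.2%. After an offset for GC content and length in each library, DESeq2 called 6 of the 9 members, 4 lower and 2 higher, beside 36.3% of all genes tested in that fit. The 3 newly lower members were MAFG at -0.16 (adjusted p = 0.000176), MAFF at -0.23 (2.85e-05) and MAF at -0.22 (0.000709), all on the log2 scale. BACH1 increased from 0.12 to 0.27 (2.06e-11). NFE2L1 (0.11, 4.03e-06) and NFE2L3 (-0.42, 1.62e-08) kept their direction and their call, and MAFK turned to -0.08 without passing (0.59). With DESeq2 size factors and all 6 libraries, MAFG, MAFF and MAF thus passed the test with this offset and not without it. Calls under other scalings are given below.

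**Figure D2:**
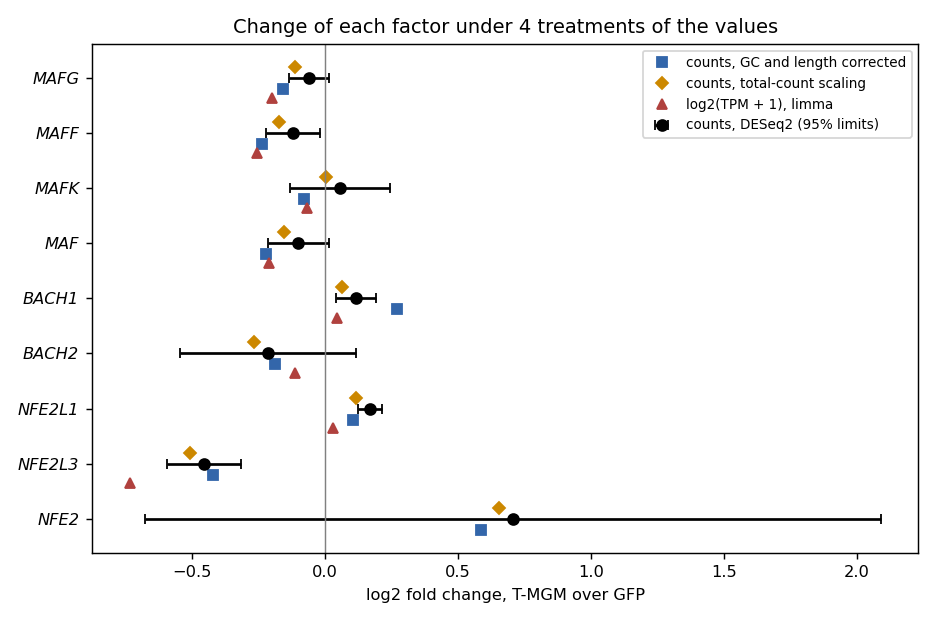
Log2 fold change of each member, T-MGM over GFP (horizontal axis), from counts with DESeq2 (black, with 95% limits), with total counts as scaling (orange diamonds), with the GC content and length offset (blue squares) and from log2(TPM + 1) with limma (red triangles; NFE2 lay under the TPM filter). NFE2L3 is lower in all 4 treatments, from -0.42 to -0.73, whereas MAFK changes side.

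The deposited TPM values and total-count scaling were also read. The median gene had a log2 difference of -0.13 on the log2(TPM + 1) scale and -0.06 with total counts as scaling, so members are also given relative to that shift. On this scale limma called 3 of the 8 members that passed the filter, all lower, beside 40.3% of genes tested: MAFG at -0.20 (adjusted p = 0.0222), MAFF at -0.25 (0.00528) and NFE2L3 at -0.73 (0.0092). Relative to the median gene these differences were -0.07, -0.12 and -0.60. NFE2L1 at 0.03 and BACH1 at 0.05 did not pass (limma adjusted p = 0.618 and 0.656), and stood 0.16 and 0.18 above the median gene. MAFK stood 0.06 above it. With total counts, DESeq2 called 5 of the 9 members, 1 higher and 4 lower, beside 7561 of 19735 genes tested in that fit. MAFG (-0.11, DESeq2 adjusted p = 0.0107), MAFF (-0.17, 0.00255) and MAF (-0.15, 0.0249) passed there, and BACH1 (0.07, 0.183) did not. Relative to the median gene, MAFG, MAFF, MAF and NFE2L3 were lower and NFE2L1, BACH1 and MAFK higher under both scalings.

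TPM values allowed the members to be ranked by level. In GFP the order was NFE2L1 at 50.6 ± 1.63 TPM (SD, n = 3, as for all levels here), MAFF at 12.5 ± 0.257, MAFG at 9.88 ± 0.335, BACH1 at 9.59 ± 0.402 and NFE2L3 at 7.39 ± 1.94. MAF followed at 5.03 ± 0.686, then MAFK at 3.38 ± 0.29, BACH2 at 0.717 ± 0.232 and NFE2 at 0.12 ± 0.104. NFE2L1 was 4.06 times as high as MAFF, the next member. The ranges of MAFG and BACH1 overlapped, as did those of BACH1 and NFE2L3, and all other neighbours in this order were separate. NFE2L3 had 6.01, 6.55 and 9.60 TPM in GFP, and the third of these stood well apart from the others, unlike in the normalized counts.

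In T-MGM the order was NFE2L1 at 51.8 ± 2.63 TPM, MAFF at 10.3 ± 0.235, BACH1 at 9.95 ± 0.92, MAFG at 8.48 ± 0.221 and MAF at 4.21 ± 0.459. NFE2L3 came next at 3.97 ± 0.393, above MAFK at 3.19 ± 0.423, BACH2 at 0.597 ± 0.304 and NFE2 at 0.16 ± 0.0436. By the means, BACH1 thus stood above MAFG and MAF above NFE2L3, the reverse of the order in GFP. Neither pair had separate ranges in both groups, as MAFG and BACH1 overlapped in GFP and MAF and NFE2L3 in T-MGM. The ranges overlapped between MAFF and BACH1, between MAF and NFE2L3 and between NFE2L3 and MAFK. The summed TPM of the 9 members was 98.4 to 100.2 in GFP and 89.4 to 94.3 in T-MGM. This sum was not set against the shift of the median gene, which was -0.13 on log2(TPM + 1).

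**Figure D3:**
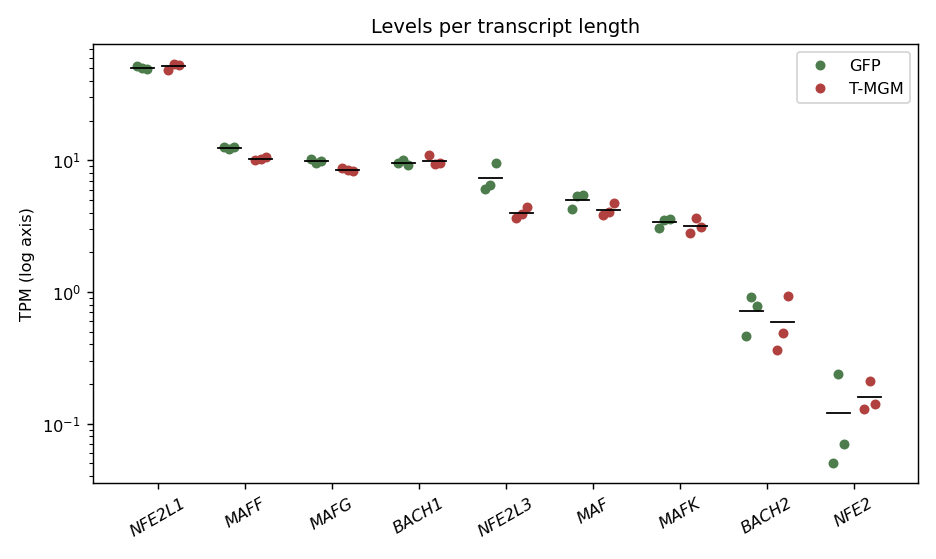
TPM of each member (log axis) in the 3 GFP (green) and 3 T-MGM (red) libraries, replicates 1 to 3 from left to right, with the group mean as a line, ordered by the GFP mean. NFE2L1 lies near 50 TPM and NFE2 under 0.25 TPM, and the NFE2L3 points of the groups do not overlap.

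Ratios of raw counts within a library do not depend on how libraries are scaled. NFE2L1 and BACH1 both had more counts per MAFG count in T-MGM. There were 4.49, 4.69 and 4.46 NFE2L1 counts for each MAFG count in the GFP libraries, against 5.09, 5.52 and 5.41 in T-MGM. BACH1 counts per MAFG count were 0.985, 1.09 and 1.02 in the GFP libraries, against 1.11, 1.17 and 1.22 in T-MGM. Both ratios were higher in every T-MGM library, with group means of 4.55 ± 0.122 and 5.34 ± 0.225 for NFE2L1 and of 1.03 ± 0.0532 and 1.17 ± 0.0528 for BACH1. These ratios were not tested beyond the separation of their ranges. MAFG counts in T-MGM can hold reads of the insert, whose number was not tested, here and in the ratios below. No offset for GC content was applied to the ratios, and the transcripts had 57.3% for MAFG and 38.2% for BACH1.

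NFE2L3 moved the other way. Its ratio to MAFG was 0.419 ± 0.025 in GFP and 0.318 ± 0.0295 in T-MGM. Against its relative NFE2L1 the ratio was 0.0872, 0.0903 and 0.0989 in the GFP libraries against 0.0602, 0.0535 and 0.0649 in T-MGM, and the T-MGM mean was 0.647 of the GFP mean. The BACH1 to BACH2 ratio was 17.1 ± 2.21 in GFP and 21.3 ± 0.597 in T-MGM, again without overlap. BACH2 had only 111 to 186 raw counts, and its own change did not pass (DESeq2 adjusted p = 0.357). The share of gene pairs whose ratios separate was not counted, and 46.8% of single tested genes separated in normalized counts. The ratios of MAFF, MAFK and MAF to MAFG overlapped between the groups.

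**Figure D4:**
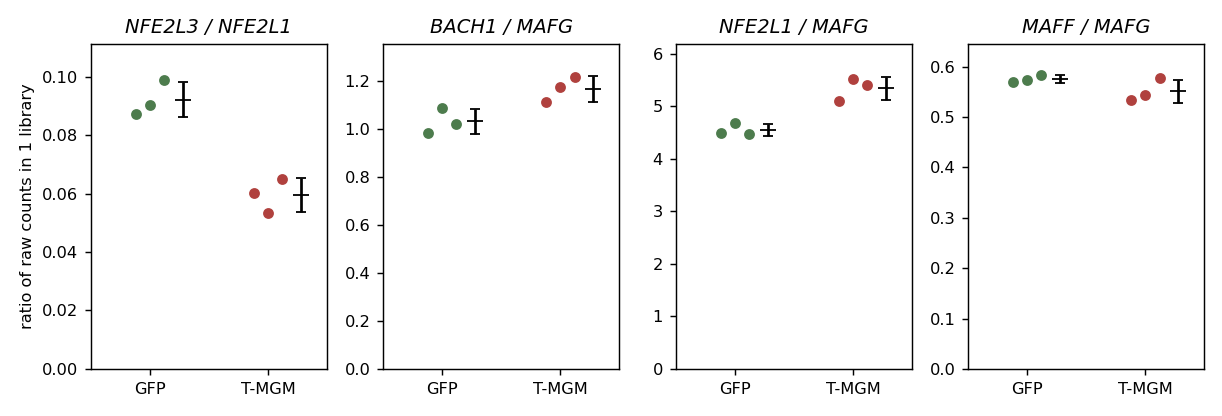
Ratio of raw counts of a pair of members within each library (vertical axes, from 0) in GFP (green) and T-MGM (red), with the mean ± SD of each group in black. NFE2L3 over NFE2L1 falls from a mean of 0.0921 to 0.0596 without overlap, and MAFF over MAFG overlaps.

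The makeup of the small MAF RNA, read from gene-level TPM, hardly differed between the groups. These are RNA levels and not protein, and how many MAFG reads came from the insert was not tested. MAFG gave 38.4% ± 0.928 of the summed small MAF TPM in GFP and 38.6% ± 1.48 in T-MGM, and these ranges overlapped. MAFF gave 48.4% ± 0.271 and 46.9% ± 1.09, with ranges that just separated, and MAFK 13.2% ± 1.19 and 14.5% ± 1.63. The summed small MAF level was 25.7 ± 0.437 TPM in GFP and 22.0 ± 0.442 in T-MGM, and no library of one group reached the other. The median gene also lay lower in T-MGM, at -0.13 on log2(TPM + 1), and this sum was not set against that shift. The CNC and BACH totals that follow cover only the 5 members examined here and not every such gene. There were 2.66 ± 0.043 TPM of CNC and BACH members for each TPM of small MAF in GFP and 3.02 ± 0.0552 in T-MGM. NFE2L1 made up 74.0% ± 2.6 of the total of these 5 members in GFP and 77.9% ± 1.56 in T-MGM, with overlapping ranges.

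Genes that process, degrade or act with the family were examined as a list of 16. DESeq2 called 4 of them higher and 5 lower in T-MGM, beside 19.2% of all tested genes in each direction, and their median log2 fold change was 0.01. DDI2, the protease that cleaves NFE2L1 at the endoplasmic reticulum, had the largest change of the list. It fell by 0.50 on the log2 scale, from 5948 ± 95.7 to 4210 ± 145 normalized counts (SD, n = 3 each, DESeq2 adjusted p = 2.31e-64). CUL3, the scaffold of a ubiquitin ligase that acts on CNC factors, fell by 0.35 (8.77e-42). CHD8, a chromatin remodeller that acts with MAFG and BACH1 as a corepressor, fell by 0.16 (2.85e-13), and DNMT3B, the DNA methyltransferase of that complex, by 0.28 (0.00452).

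The other called members of the list had other roles. KEAP1, the adaptor of the CUL3 ligase, rose by 0.21 (DESeq2 adjusted p = 3.4e-06), and SEL1L and SYVN1, parts of the degradation machinery of the endoplasmic reticulum, each rose by 0.18 (4.88e-07 and 0.000148). HCFC1, a host cell factor that binds NFE2L1, rose by 0.12 (1.07e-12). FBXO22, which marks heme-bound BACH1 for degradation, fell by 0.24 (1.27e-07). NGLY1, which removes sugars from NFE2L1, was at 0.01 (0.909) and the segregase VCP at 0.01 (0.816). After the GC content and length offset, 2 of the 16 were called higher and 4 lower, beside 36.3% of all genes in either direction. The higher genes were SEL1L and OGT, a sugar transferase, and the lower genes were CHD8, CUL3, DDI2 and DNMT3B. KEAP1, SYVN1, HCFC1 and FBXO22 no longer passed in that fit (adjusted p = 0.0752, 0.19, 0.686 and 0.135). In the TPM values limma called 5 of the 16, all lower, beside 40.3% of all genes in either direction. The median gene also lay at -0.13 on the log2(TPM + 1) scale. KEAP1, SEL1L, SYVN1 and HCFC1 were not called there.

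Proteasome subunits, whose genes are known targets of NFE2L1, had more lower than higher calls. Of 34 subunit and assembly genes, 6 were called higher and 16 lower by DESeq2, with a median log2 fold change of -0.07, beside 19.2% of all tested genes in each direction and a median of -0.0027. PSMB4, a subunit of the catalytic core, fell from 8883 ± 62.0 to 6304 ± 287 normalized counts, a log2 fold change of -0.49 (DESeq2 adjusted p = 5.86e-72). PSMD4, the ubiquitin receptor of the regulatory cap, fell by 0.44 (3.57e-45) and PSMA7, a core subunit, by 0.26 (1.21e-25). PSMC3, a cap ATPase, rose by 0.17 (6.9e-10) and PSMD8 of the cap by 0.15 (1.74e-10). With the GC content and length offset, 3 were called higher and 13 lower, beside 36.3% of all genes in either direction. The 3 higher were POMP (0.31), PSMD6 (0.12) and PSMC3 (0.06), and PSMD8 no longer passed (0.03, DESeq2 adjusted p = 0.349). In TPM values all 24 that limma called were lower, beside 40.3% of all genes in either direction, and the median gene also lay at -0.13. The largest change in the list was under 2-fold.

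Heme, iron and redox genes with known MAF sites, many of them targets of BACH1, also had more lower than higher calls. Of 16 genes, 15 received an adjusted p, and DESeq2 called 4 higher and 8 lower, beside 19.2% of all tested genes in each direction, with a median log2 fold change of -0.08. NQO1, a quinone reductase, fell by 0.49, from 22274 ± 307 to 15845 ± 338 normalized counts (adjusted p = 1.16e-165). TXNRD1, the cytosolic thioredoxin reductase, fell by 0.50 (3.14e-108) and SLC7A11, the cystine importer, by 0.74 (4.21e-88). SRXN1 fell by 0.37 (1.36e-20). GCLM, a subunit of the enzyme that starts glutathione synthesis, fell by 0.29 (1.08e-07), while the other subunit, GCLC, was at -0.05 (0.658). HMOX1, heme oxygenase and the best known BACH1 target, was at -0.04 with an SE of 0.08 (DESeq2 adjusted p = 0.731).

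Heme and iron genes of the list were called in both directions. SLC48A1, a heme transporter, rose by 0.80 (SE 0.16, DESeq2 adjusted p = 2.24e-06), and ME1, malic enzyme, by 0.33 (1.37e-12). BLVRB, a biliverdin reductase, rose by 0.18 (0.00591) and FTH1, the ferritin heavy chain, by 0.05 (0.00297). FTL, the ferritin light chain, fell by 0.08 (0.000108), ABCB6, a porphyrin transporter, by 0.28 (6.07e-13) and FECH, the last enzyme of heme synthesis, by 0.34 (7.79e-05). After the GC content and length offset 2 genes of the list were called higher and 9 lower, beside 36.3% of all genes in either direction. BLVRB and FTH1 no longer passed in that fit (DESeq2 adjusted p = 0.916 and 0.363). In the TPM values limma called 2 higher and 10 lower, beside 40.3% of all genes in either direction, and the median gene also lay at -0.13.

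**Figure D5:**
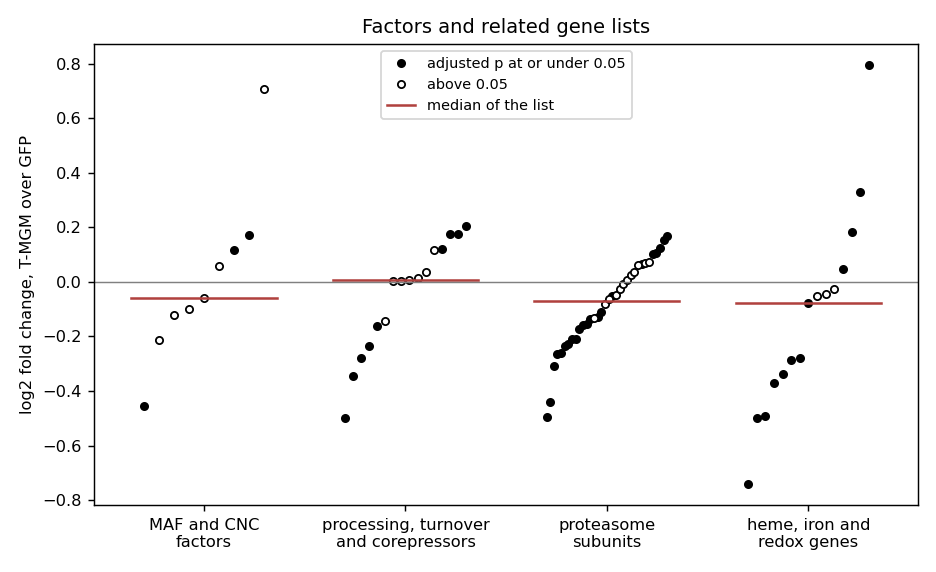
Log2 fold change, T-MGM over GFP (vertical axis), of each gene with an adjusted p in the family and in 3 lists of related genes, sorted within a list, with filled points at a DESeq2 adjusted p at or under 0.05, open points above it, and the list median as a red line. Proteasome subunits have 16 filled points below 0 and 6 above.

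The genes whose normalized counts ran most nearly with a member over the 6 libraries were found by Pearson's r of log2(normalized count + 1), among 11653 genes with a mean of at least 100. The libraries share size factors and fall into 2 groups, so these values describe the pattern only. MAFG ran closest with ZFYVE9 (r = 0.985), MIS12 (0.983) and TRPC1 (0.981), and 35 genes exceeded 0.95. NFE2L1 ran closest with ALDOC (0.999), TECR (0.998) and VPS26B (0.995), NFE2L3 with NME2 (1.00), TYW5 (0.997) and GEMIN5 (0.997), and BACH1 with CNTROB (0.994), AGAP3 (0.993) and IRF9 (0.993). The number of genes above 0.95 was 569 for NFE2L1, 715 for NFE2L3 and 109 for BACH1. Such genes were most numerous for NFE2L3 and fewest for MAFG.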

How the data were processed

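The authors trimmed reads with cutadapt 1.8.1, aligned them to GRCh38 with STAR 2.7.7a and counted uniquely aligned reads per gene. The deposited counts hold 1 whole number for each gene and library, before any normalization. The authors also deposited TPM values per gene, and their processing notes name RSEM 1.3.0. The annotation release is not given in the sources used here, which name both an unstranded and a strand-specific library kit. Counts were compared with DESeq2 1.42.0 in R 4.3.3, by a 2-sided Wald test with the group as the only term, and Benjamini-Hochberg adjustment ran over all tested genes. Alternatives were edgeR 4.0.16, other scalings and count filters, a replicate block, each replicate left out, lowess offsets for GC content and length (span 0.3), and limma 3.58.1 on log2(TPM + 1) or log2(TPM + 0.1), with a minimum of 0.5 TPM in 3 libraries or none. Offsets from medians over transcripts were added after the data were seen. Gene positions are from GENCODE 44, which held 99.4% of identifiers. The text names all members, the other large MAF genes, the 3 called genes with the largest Wald statistic in each of the 3 lists, and the 3 genes most like MAFG, NFE2L1, NFE2L3 and BACH1. Further genes of the lists, MAFG-DT and HNRNPA2B1 were named after their values were seen. An item covered by this rule is not reported here. Members and lists were chosen with earlier results of these data known. All 6 columns were mapped to samples. The main DESeq2 fit, edgeR, limma on log2 values and DESeq2 with the GC content and length offset were tested on simulated counts. Reads carry no molecular identifiers, so the floor of 3 counts covers counting error only.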

Additional observations from a re-analysis of the deposited data

How the results depend on the processing

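The number of members called was 3 in 15 of 18 alternatives, including every fit without one replicate (3 to 3), but not always for the same genes: in the 3 TPM fits all 3 were lower (MAFG, MAFF and NFE2L3), and without T-MGM replicate 3 MAFF took the place of BACH1. It was 5 with total counts as scaling (1 higher, 4 lower), beside 7561 of 19735 genes tested in that fit, where the median gene lay at -0.06. It was 6 (2 higher, 4 lower) with the offset for GC content and length, beside 36.3% of genes tested. Offsets from medians over transcripts also gave 6 (2 higher, 4 lower), beside 6742 of 17912 genes. The main split was 2 higher and 1 lower. No alternative called a member over 2-fold. The log2 fold change of MAFK reversed to -0.078 and -0.093 with these offsets, to -0.067, -0.085 and -0.067 in the TPM fits (pseudocount 1, 0.1, and 1 with no filter), and to -0.0073 and -0.035 without GFP replicate 1 and without T-MGM replicate 2, in a range of -0.035 to 0.15 over the fits without one replicate. The lower call of NFE2L3 was kept in 18 of 18 alternatives (adjusted p of 3e-12 to 0.0397), and the higher calls of NFE2L1 and BACH1 in 15 and 13. Without T-MGM replicate 3, BACH1 lost its call (adjusted p of 0.0751) and MAFF gained one (0.0491). Of the processing and corepressor genes, 5, 5 and 4 were called in the TPM fits, all lower, in place of 9 (4 higher, 5 lower), and 9 to 10 without one replicate. Proteasome subunits called ranged from 16 to 25 and heme, iron and redox genes from 10 to 12. The share of all tested genes called was 38.4% in the main fit, 36.3% with the GC content and length offset and 40.3% on log2(TPM + 1). Replicate numbers did not pair the libraries: deviations of same-numbered libraries correlated at -0.0067, -0.058 and 0.029, and 1 of 6 libraries correlated best with its own number. The replicate block left 3 members called, with BACH1 at an adjusted p of 0.0455. Depth limited NFE2, which had at most 18 counts.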
